A study of Homo sapiens with 4 samples.

Results

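Genes of the translational stress response were chosen by name from a table of DHX36 binding, namely EIF2AK1, EIF2AK2, EIF2AK3, EIF2AK4, EIF2S1, ATF4, G3BP1, G3BP2, TIA1 and TIAL1, which make up 10 of its 26490 gene entries. DHX36 is a DEAH-box helicase that unwinds G-quadruplexes, structures formed by stacked guanines. Its RNA contacts were mapped by PAR-CLIP, in which 4-thiouridine in the RNA is crosslinked to a tagged protein by UV light and the bound fragments are recovered with the protein and sequenced. Both cell lines were HEK293, a line of human embryonic kidney origin, and each carried a stable tetracycline-inducible HA-Flag transgene on top of the cells' own DHX36. The FH-DHX36-E335A line expressed isoform 1 with the mutation E335A, which the study used as a catalytically inactive form, and the FH-DHX36 line expressed isoform 2 without it. The isoform and the mutation therefore differ together, and their effects cannot be told apart. Both lines were induced with 500 ng/ml tetracycline for 15 h and irradiated at 365 nm for 5 min, and the labels name no stress treatment. There were 2 samples of each line, but the table gives 1 value per gene and line, so no spread between replicates could be computed, no test was made, and each difference below compares 2 pooled measurements. The intervals given are 95% and cover counting error only, treating each read as independent. Whether PCR copies were removed before counting is not stated. Where copies remain, reads are not independent molecules and the intervals are too narrow even for that error.

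Cells answer several kinds of stress by phosphorylating the alpha subunit of translation initiation factor eIF2, encoded by EIF2S1. The 4 kinases that do so are HRI (EIF2AK1), active in heme shortage and mitochondrial stress, PKR (EIF2AK2), activated by double-stranded RNA, PERK (EIF2AK3), a sensor of unfolded proteins in the endoplasmic reticulum, and GCN2 (EIF2AK4), activated when amino acids run short. Phosphorylated eIF2 lowers general translation initiation and raises translation of ATF4, a transcription factor whose mRNA carries upstream reading frames. Untranslated mRNAs then gather in stress granules, condensates nucleated by the RNA-binding proteins G3BP1, G3BP2, TIA1 and TIAL1. The study followed phosphorylated PKR and stress granules as readouts of DHX36 loss, and the binding table allows the question of whether DHX36 contacted the mRNAs of this machinery itself.

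Since the helicase acts on guanine-rich RNA, the canonical GENCODE 44 transcripts of the genes were searched on the transcript strand for runs of G. They are on GRCh37, the build the reads were mapped to. The pattern was 4 runs of G, each 2 or longer, separated by 1 to 7 nt of any base. Matches were counted without overlap, so a stretch with more than 4 runs can count as more than 1 match. The pattern is loose, and a match does not define a quadruplex. Below are 6 of the matches, picked after the search and not by a fixed rule, so they do not stand for the rest. The EIF2AK2 5′UTR among them is a region without listed reads, and the runs of the ATF4 match are not regular. Guanine runs are in capitals and T stands for U.
G3BP1 3′UTR, chr5:151188454-151188470, plus strand: GGGGtGGGGtGGGGtGG
G3BP2 3′UTR, chr4:76569475-76569491, minus strand: GGGGagaGGGaaGGaGG
EIF2AK2 3′UTR, chr2:37331569-37331587, minus strand: GGGGGGGtgaGGtGGGaGG
EIF2AK2 5′UTR, chr2:37384065-37384075, minus strand: GGcGGcGGcGG
EIF2AK1 CDS, chr7:6098657-6098676, minus strand: GGaGGGcgacGGGGctGGGG
ATF4 5′UTR, chr22:39916638-39916667, plus strand: GGGtccacGGccaccatGGcgtattaGGGG
The G3BP1 match repeats a run of 4 guanines and a T 3 times before its last run. The ATF4 match spans nt 72 to 101 of the 5′UTR and contains the start codon, at nt 87, of an upstream reading frame of 3 codons that ends at nt 98. A longer upstream frame of 59 codons starts at nt 186 and ends at nt 365, past the start of the ATF4 coding sequence. The table gives no cluster positions, so whether any read lay on these matches is not known here.

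**Figure D1:**
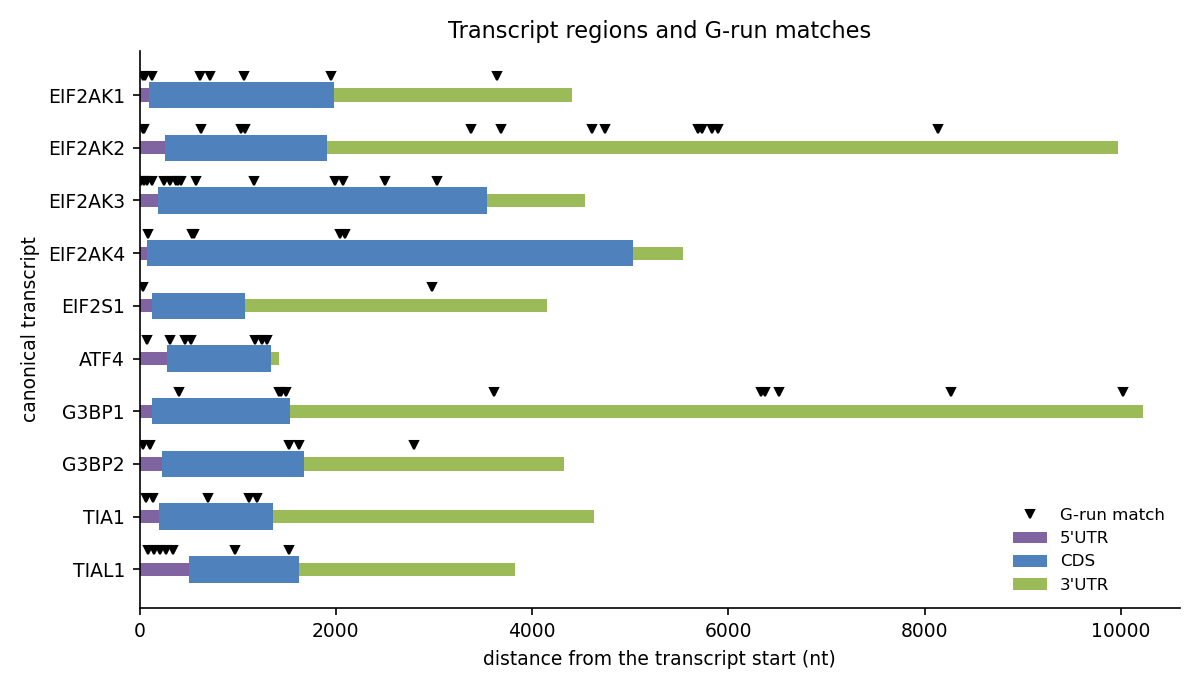
Canonical transcripts of the 10 genes drawn to scale from the transcript start (x axis, nt), with 5′UTR, CDS and 3′UTR coloured and each G-run match marked by a triangle. Of the 78 matches 19 lie in 5′UTRs, 41 in coding sequences and 18 in 3′UTRs, and the 3′UTRs of EIF2AK3, EIF2AK4, TIA1, TIAL1 and ATF4 hold none.

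Across the 10 transcripts there were 78 such matches, 19 in 5′UTRs of 8 genes, 41 in coding sequences of 9 genes and 18 in 3′UTRs of 5 genes. Only 1 match remained when runs of at least 3 guanines were required, in the coding sequence of EIF2AK4. Against 3′UTRs of all genes within 20% of the same length, 8 of 10 held fewer matches than the median and 2 held the median number. Set against 5′UTRs of like length, 6 of the 10 5′UTRs held more than the median, 2 held the median number and 2 fewer, and for coding sequences these counts were 4, 1 and 5. The 8694-nt 3′UTR of G3BP1 held 6 matches where 415 3′UTRs of like length had a median of 9, and 98.6% of them held at least 1. The 8063-nt 3′UTR of EIF2AK2 held 9, equal to the median. TIA1, with 3275 nt of 3′UTR, held 0 where 87.8% of like 3′UTRs held at least 1. ATTTA, the core of AU-rich elements, was above the median of like 3′UTRs in 6 of the 10, at it in 2 and below it in 2. It occurred 22 times in the EIF2AK2 3′UTR (median of like length 18), 18 times in that of G3BP1 (median 19), 13 times in that of TIA1 (median 7), 11 times in that of EIF2S1 (median 6) and 1 time in that of EIF2AK1 (median 5). A match says only that these letters are present, not that DHX36 bound there.

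The FH-DHX36-E335A PAR-CLIP held 8752127 crosslinked reads in 60208 clusters (stretches of overlapping crosslinked reads called as binding sites) on 9131 genes, and the FH-DHX36 PAR-CLIP held 2160413 reads in 16742 clusters on 5930 genes. The former was thus 4.05 times as deep. The lowest listed gene had 5 reads in the first and 6 in the second, so a gene at 0 is one with no listed cluster, not one shown to be unbound.

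All 10 genes had at least 1 cluster in FH-DHX36-E335A, against 34.5% of all entries, and 7 of 10 had one in FH-DHX36, against 22.4%. EIF2AK3, EIF2AK4 and TIA1 had no cluster listed in FH-DHX36. These were also the genes with the fewest reads in FH-DHX36-E335A, 53, 91 and 257, which would come to 13.1, 22.5 and 63.4 reads at the depth of FH-DHX36. The entries behind both background shares include genes that HEK293 cells do not express, and mRNA abundance can be recovered from the table only for genes with a cluster, so no background restricted to expressed genes was available. Together the 10 genes took 47583 reads in FH-DHX36-E335A, 0.544% of the total (Wilson interval 0.539 to 0.549%), and 10819 in FH-DHX36, 0.501% (0.492 to 0.510%). G3BP1 alone carried 71.5% and 75.6% of these reads. Without G3BP1, left out after its values were seen, the shares were 0.155% and 0.122%. The median gene of the set that had a cluster carried 1564 reads in FH-DHX36-E335A and 382 in FH-DHX36, beside medians of 326 and 121 over all genes with a cluster.

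**Figure D2:**
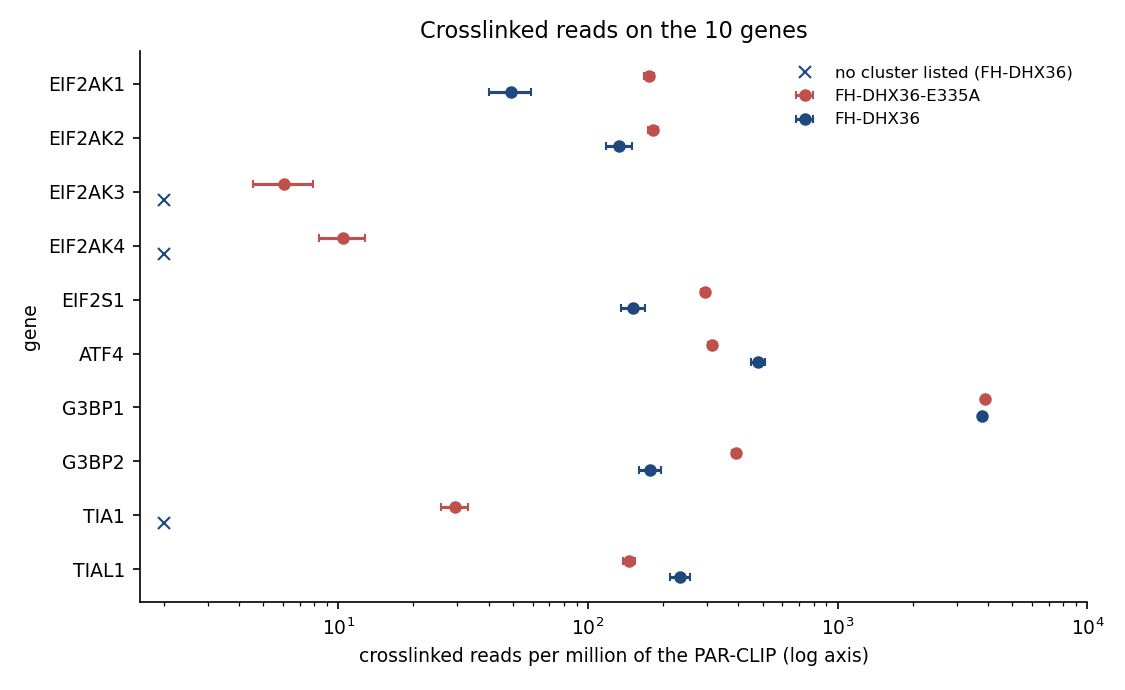
Crosslinked reads of each gene per 1000000 crosslinked reads of the PAR-CLIP (log axis), with 95% exact Poisson intervals, and crosses for genes with no cluster listed in FH-DHX36. G3BP1 stands at 3889 and 3784 on this scale, and the other genes with a cluster lie between 6.06 and 479.5.

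Among the kinases, PKR stood apart in reads relative to mRNA abundance. In reads alone EIF2AK1, with 1536 in FH-DHX36-E335A, came close to it. EIF2AK2 (chr2:37326353-37384665, minus strand) carried 16 clusters and 1593 reads in FH-DHX36-E335A and 4 clusters and 288 reads in FH-DHX36. In FH-DHX36-E335A 6 clusters with 662 reads lay in the coding sequence, 7 clusters with 696 reads in the 3′UTR and 3 clusters with 235 reads outside the categories the table lists, which are 5′UTR, CDS, 3′UTR and intron. In FH-DHX36 the coding sequence had 166 reads and the 3′UTR 122. No cluster lay in the 5′UTR in either line, although that region holds 2 G-run matches, among them the GGC repeat shown above. The 2 matches adjoin, at nt 31 to 47 and 49 to 59. The share of exonic reads (5′UTR, CDS and 3′UTR) in the 3′UTR was 51.3% (48.6 to 53.9%) and 42.4% (36.8 to 48.1%). Coding sequence and 3′UTR thus shared the reads about equally in FH-DHX36-E335A, and the coding sequence held the larger part in FH-DHX36.

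The table's expression-normalised value, NXPM, is the gene's crosslinked reads, scaled to 1000000 reads of the PAR-CLIP, divided by its mRNA abundance. EIF2AK2 mRNA was scarce, with a recovered abundance of 2.31 beside a median of 5.89 over genes with a cluster in FH-DHX36-E335A. Its NXPM was 78.9 (exact Poisson interval 75.1 to 82.9) in FH-DHX36-E335A and 57.8 (51.3 to 64.9) in FH-DHX36, at or above 93.3% and 88.5% of genes with a cluster. In reads alone it stood at or above 85.1% and 73.1%. The NXPM of a region is scaled to all reads of that region, and for the EIF2AK2 coding sequence it was 193.6 and 117.3, against 64.7 and 63.7 for the 3′UTR. The 3 genes with the most similar pair of NXPM values, by distance on the log10 scale among 5364 genes with clusters in both lines and an abundance of at least 1, were MSL1 (78.7 and 56.3), ZXDC (78.8 and 55.7) and COL4A3BP (74.8 and 57.6).

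HRI was bound mainly outside the listed categories. EIF2AK1 (chr7:6061878-6098806, minus strand) carried 13 clusters and 1536 reads in FH-DHX36-E335A and 3 clusters and 106 reads in FH-DHX36. Of the 13 clusters 11 lay in the coding sequence, yet they held 383 reads, a mean of 34.8 per cluster, while 1 cluster outside the 4 categories held 1132 reads, 73.7% of the gene's total (71.4 to 75.8%). In FH-DHX36, 2 clusters outside the categories held 86 of the 106 reads and 1 coding cluster held 20. Most reads of the gene thus lay outside the 4 categories in both lines, on a single dense cluster in FH-DHX36-E335A only. The annotation places the protein-coding genes AIMP2 and ANKRD61 on the opposite strand and RN7SL851P, a copy of the 7SL RNA, on the same strand within the EIF2AK1 locus. Whether any of the reads came from these was not tested. The EIF2AK1 coding sequence holds 5 G-run matches, more than any exonic region of PKR except its 3′UTR. NXPM was 14.5 (13.8 to 15.3) and 4.06 (3.32 to 4.91).

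PERK and GCN2 were at the low end. EIF2AK3 (chr2:88856259-88991036, minus strand) carried 2 clusters and 53 reads in FH-DHX36-E335A, 36 in the 3′UTR and 17 in an intron. EIF2AK4 (chr15:40226316-40327792, plus strand) carried 3 clusters and 91 reads, 18 in the coding sequence, 39 in the 3′UTR and 34 in an intron. Neither had a cluster listed in FH-DHX36. Their NXPM values were 5.23 (3.92 to 6.84) and 5.03 (4.05 to 6.18), close to the median of 5.66 over genes with a cluster, at recovered abundances of 1.16 and 2.07. EIF2AK3 holds 15 G-run matches in its 5′UTR and coding sequence, 4 and 11, and had no reads listed in either region. Some of them adjoin, such as those at nt 180 to 196, 201 to 220 and 228 to 256 of the coding sequence. On the canonical transcripts the ordering of the kinases by reads was thus not that of their G-run matches. The longest EIF2AK3 transcript holds fewer, 1 in the 5′UTR and 5 in the coding sequence.

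EIF2S1 (chr14:67827045-67853233, plus strand), which encodes the common substrate, carried 19 clusters and 2573 reads in FH-DHX36-E335A and 6 clusters and 328 reads in FH-DHX36. In FH-DHX36-E335A 14 clusters with 1316 reads lay in the 3′UTR, 260 reads lay on 1 cluster in the 5′UTR and 170 on 1 in the coding sequence, and 3 clusters with 827 reads lay outside the categories. In FH-DHX36 the 3 regions held 140, 93 and 95 reads on 2 clusters each. The 3′UTR share of exonic reads was 75.4% (73.3 to 77.3%) in FH-DHX36-E335A and 42.7% (37.4 to 48.1%) in FH-DHX36. NXPM was 24.6 (23.7 to 25.6) and 12.7 (11.4 to 14.2), at or above 79.5% and 61.3% of genes with a cluster. Its short 5′UTR of 130 nt holds 1 G-run match and had a regional NXPM of 64.3 and 45.2.

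ATF4 (chr22:39915700-39918688, plus strand) combined many reads with the lowest NXPM of the set. It carried 14 clusters and 2752 reads in FH-DHX36-E335A and 11 clusters and 1036 reads in FH-DHX36, at or above 92.1% and 92.5% of genes with a cluster. With a recovered abundance of 474, NXPM came to 0.663 (0.639 to 0.688) and 1.01 (0.951 to 1.08), at or above 13.6% and 14.5%. Reads lay mainly on the coding sequence, with 1838 and 880 reads, which is 84.5% (83.0 to 86.0%) and 84.9% (82.6 to 87.0%) of exonic reads. The 5′UTR, with the upstream frames described above, had 27 reads on 1 cluster in FH-DHX36-E335A and 93 reads on 2 clusters in FH-DHX36, although the latter was the shallower PAR-CLIP. As a share of exonic reads this was 1.24% (0.855 to 1.80%) and 8.98% (7.38 to 10.9%), intervals that do not overlap. The 3′UTR is only 81 nt long and had 309 and 63 reads. In FH-DHX36-E335A a further 578 reads on 4 clusters lay outside the categories, and in FH-DHX36 there were none.

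G3BP1 (chr5:151150606-151192472, plus strand) was among the most heavily crosslinked genes of the whole table. It carried 34036 reads on 44 clusters in FH-DHX36-E335A and 8174 reads on 23 clusters in FH-DHX36, and ranked 5 and 15 by reads. In FH-DHX36-E335A 36 clusters with 28185 reads lay in the 3′UTR, a mean of 783 reads per cluster against a median of 65.8 over all genes with a cluster. In FH-DHX36 17 clusters with 3005 reads did. The 5′UTR held 60 and 64 reads and the coding sequence 376 and 140. The 3′UTR share of exonic reads was 98.5% (98.3 to 98.6%) and 93.6% (92.8 to 94.4%), the highest among the 7 genes with clusters in both lines. The rest lay outside the 4 categories, 5415 reads on 4 clusters and 4965 reads on 2 clusters. These made up 15.9% (15.5 to 16.3%) of the gene's reads in FH-DHX36-E335A and 60.7% (59.7 to 61.8%) in FH-DHX36. The 2 FH-DHX36 clusters therefore held more reads than the gene's 17 3′UTR clusters together. NXPM was 121 (120 to 123) and 118 (115 to 121) at a recovered abundance of 32.1, at or above 96.0% and 94.6% of genes with a cluster.

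G3BP2 (chr4:76567033-76649773, minus strand), its paralogue, carried 3411 reads on 20 clusters and 382 reads on 4 clusters. The 3′UTR held 2685 reads on 14 clusters in FH-DHX36-E335A and 264 reads on 2 in FH-DHX36, 88.6% (87.5 to 89.7%) and 69.1% (64.3 to 73.5%) of exonic reads. The coding sequence held 213 and 72 reads and the 5′UTR 131 and 46. Its mRNA was scarcer than that of G3BP1, with an abundance of 4.34, and NXPM was 89.8 (86.8 to 92.8) and 40.7 (36.8 to 45.0). Both G3BP mRNAs thus had most of their exonic reads in the 3′UTR in both lines.

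The TIA1 pair showed another layout. TIA1 (chr2:70436576-70475792, minus strand) carried 5 clusters and 257 reads in FH-DHX36-E335A, 143 on 1 cluster in the 5′UTR, 88 on 3 clusters in the coding sequence, 26 outside the categories and none in the 3′UTR of 3275 nt. The 5′UTR share of exonic reads, 61.9% (55.5 to 67.9%), was the highest of the 10 genes. C2orf42 overlaps the TIA1 locus on the same strand, and what part of the reads it accounts for was not tested. TIAL1 (chr10:121331314-121356541, minus strand), the paralogue of TIA1, carried 1281 reads on 18 clusters in FH-DHX36-E335A, with 44 reads in the 5′UTR, 511 in the coding sequence, 433 in the 3′UTR, 43 in an intron and 250 outside the categories. In FH-DHX36 it carried 505 reads on 3 clusters, 199 coding, 20 in the 3′UTR and 286 on a single intronic cluster, 56.6% (52.3 to 60.9%) of its reads against 3.36% (2.50 to 4.49%) in FH-DHX36-E335A. NXPM was 8.40 (7.40 to 9.49) for TIA1 in FH-DHX36-E335A, and 9.90 (9.37 to 10.5) and 15.8 (14.5 to 17.2) for TIAL1.

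**Figure D3:**
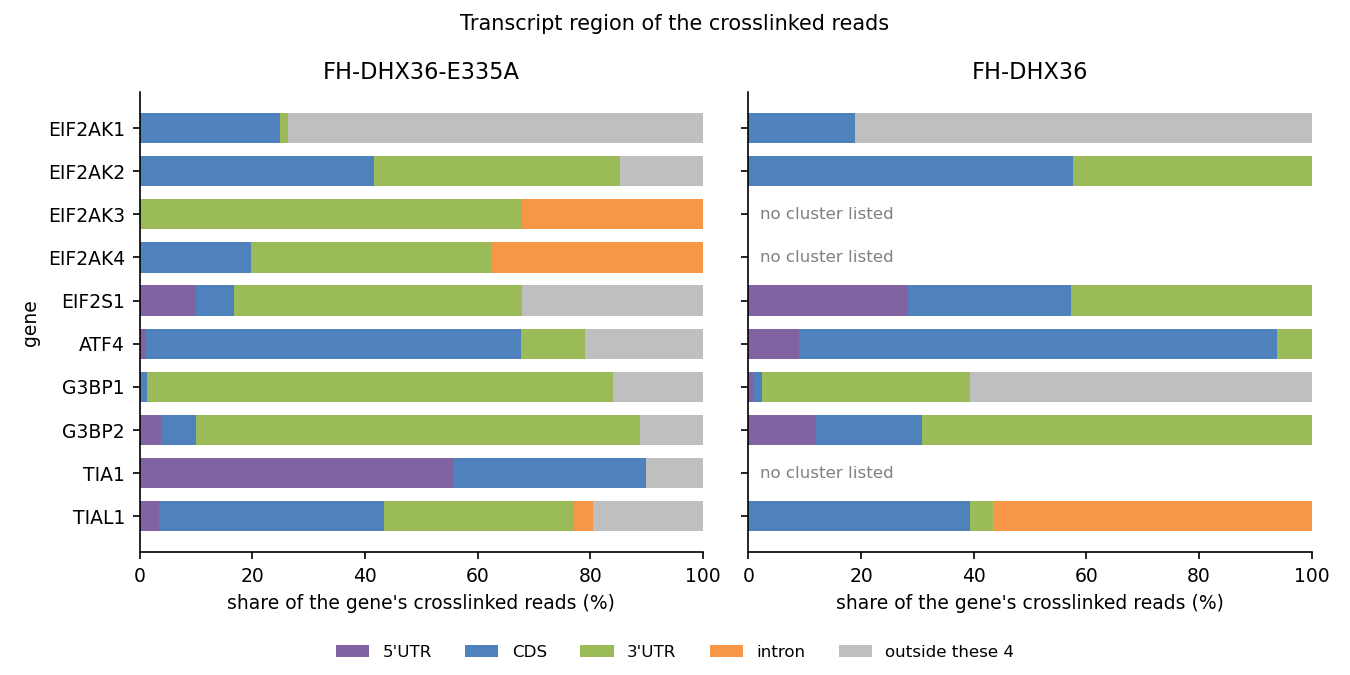
Share of each gene's crosslinked reads (x axis, %) in 5′UTR, CDS, 3′UTR, intron and outside these 4 categories, in FH-DHX36-E335A (left) and FH-DHX36 (right). Both G3BP genes are dominated by 3′UTR in FH-DHX36-E335A and ATF4 by coding sequence in both, while EIF2AK1 in both lines and G3BP1 in FH-DHX36 have most reads outside the categories.

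Reads outside the 4 categories made up 21.4% of all reads in FH-DHX36-E335A and 16.7% in FH-DHX36, and 18.6% and 46.7% of those on the 10 genes. G3BP1 held 5415 of the 8845 outside reads of the set in FH-DHX36-E335A and 4965 of the 5051 in FH-DHX36, and without it, a choice made after seeing this, the shares were 25.3% and 3.25%, so the order against all genes turned in both lines. In FH-DHX36-E335A 8 of the 10 genes had some, where 45.4% of genes with a cluster did, and 1, EIF2AK1, had over 50% of its reads there, where 12.6% of genes with a cluster did. In FH-DHX36 EIF2AK1 and G3BP1, 2 of the 7, had any, where 20.9% of genes with a cluster did, and both had over 50%, where 10.4% did. What these categories are is not stated in the table. Summed over the genes, the 3′UTR held 87.3% of exonic reads in FH-DHX36-E335A and 65.9% in FH-DHX36, beside 71.9% and 51.4% over all genes. Without G3BP1 the sums were 55.2% and 26.8%, both below those of all genes, so that the excess rests on G3BP1.

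Since NXPM is not normalised for length, levels of different genes were compared per kb of canonical transcript, whose lengths come from a later annotation than the one behind the regions of the table. In FH-DHX36-E335A the order of NXPM per kb was G3BP2 at 20.8, G3BP1 at 11.9, EIF2AK2 at 7.91, EIF2S1 at 5.92, EIF2AK1 at 3.29, TIAL1 at 2.59, TIA1 at 1.81, EIF2AK3 at 1.15, EIF2AK4 at 0.908 and ATF4 at 0.467, beside a median of 1.59 over 8628 genes. In this order the counting intervals of EIF2AK3 and EIF2AK4 overlapped and those of all other neighbours did not. In FH-DHX36 the order was G3BP1 at 11.5, G3BP2 at 9.43, EIF2AK2 at 5.79, TIAL1 at 4.13, EIF2S1 at 3.06, EIF2AK1 at 0.920 and ATF4 at 0.713, beside a median of 2.03, and EIF2AK1 and ATF4 overlapped. These values count intronic and outside reads over the length of the spliced transcript. On exonic reads only, added after seeing the data, the order in FH-DHX36 was G3BP2 at 9.43, EIF2AK2 at 5.79, G3BP1 at 4.53, EIF2S1 at 3.06, TIAL1 at 1.79, ATF4 at 0.713 and EIF2AK1 at 0.174, beside a median of 1.30, so G3BP1 fell behind G3BP2 and EIF2AK2, and TIAL1 behind EIF2S1. In FH-DHX36-E335A the first 4 kept their places, and EIF2AK1 came to 0.865, below TIAL1 and TIA1 and overlapping EIF2AK3, beside a median of 1.13. The G3BP mRNAs and PKR held the first 3 places in both lines either way. Per kb of 3′UTR G3BP1 carried 3242 reads and 4.14 clusters in FH-DHX36-E335A, G3BP2 1016 reads and 5.30 clusters, and EIF2AK2 86.3 reads and 0.868 clusters, beside medians of 128 reads and 1.93 clusters over 6808 genes with a 3′UTR cluster. These reads per kb are not divided by mRNA abundance, which was low for EIF2AK2.

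**Figure D4:**
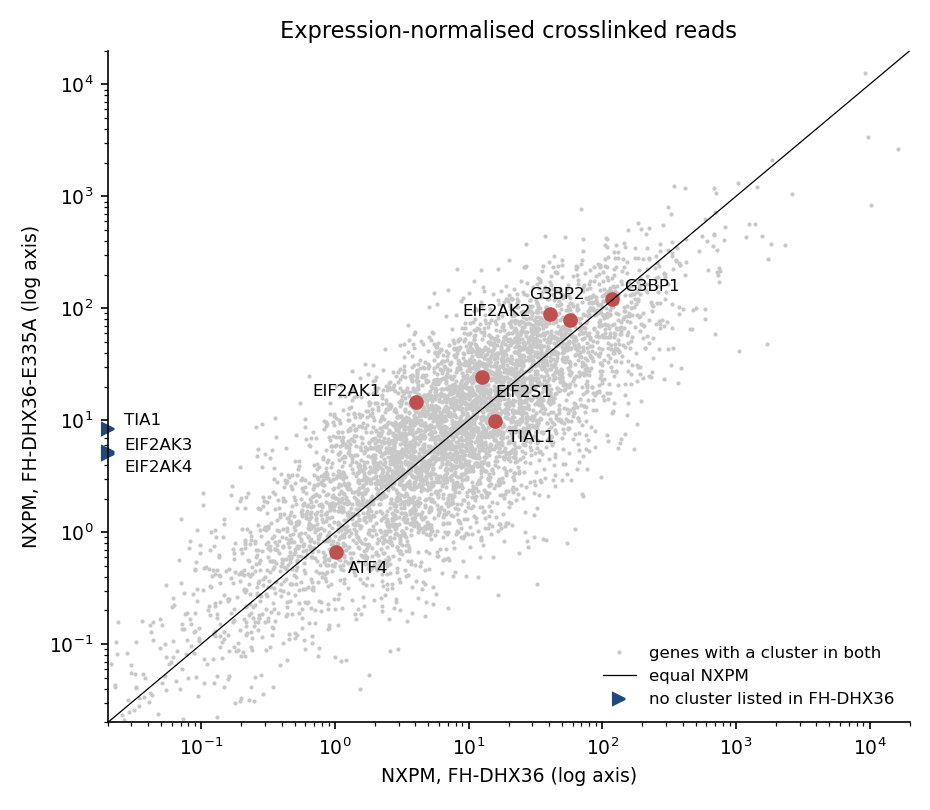
NXPM in FH-DHX36 (x axis) and FH-DHX36-E335A (y axis), both log axes, for genes bound in both lines (grey; 66 of 5669 fall below the axis start of 0.02), with 7 of the 10 genes as red points and the 3 with no cluster listed in FH-DHX36 as triangles on the left edge. Genes with an NXPM past the upper end of an axis also fall outside the plot. G3BP1 lies on the line of equal NXPM, at 121 and 118, and ATF4 lies lowest of the 10 genes.

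The share of each PAR-CLIP's reads on a gene was compared as FH-DHX36-E335A over FH-DHX36, which for a single gene equals the ratio of its NXPM values. Over the 5669 genes with a cluster in both lines the median ratio was 1.08 (log2 0.12) and the middle 50% lay between 0.503 and 2.24. Of these genes 28.6% were at least 2-fold higher in FH-DHX36-E335A and 24.8% at least 2-fold lower. Among the 7 members with clusters in both, 2 were at least 2-fold higher and none at least 2-fold lower. EIF2AK1 had a ratio of 3.58 (exact conditional interval 2.94 to 4.40) and G3BP2 one of 2.20 (1.98 to 2.46). EIF2S1 followed at 1.94 (1.73 to 2.18), EIF2AK2 at 1.37 (1.20 to 1.55) and G3BP1 at 1.03 (1.00 to 1.05), and ATF4 at 0.656 (0.610 to 0.705) and TIAL1 at 0.626 (0.564 to 0.696) were lower. Counted in clusters in place of reads, EIF2AK1 came to 1.20 and G3BP2 to 1.39, so neither passed 2-fold, while ATF4 came to 0.354, past 2-fold lower, and EIF2S1 to 0.881, on the other side of 1. G3BP1 at 0.532 and TIAL1 at 1.67 also changed side in clusters, and EIF2AK2 at 1.11 did not. TIAL1 was above 1 on exonic reads too, at 1.12. No member lay outside the central 80% of all genes, 0.237 to 4.12. With 1 pooled value per line no ratio could be set against replicate error.

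Within genes the ratio differed between regions. The values over all genes given here pool their reads. The share of single genes on either side of 1 was not computed, so the counts below have no such background. The 3′UTR ratio was above 1 for all 6 members with 3′UTR reads in both lines, at 5.34 (3.42 to 8.84) for TIAL1, 2.51 (2.21 to 2.86) for G3BP2, 2.32 (1.95 to 2.78) for EIF2S1, 2.31 (2.23 to 2.40) for G3BP1, 1.41 (1.16 to 1.72) for EIF2AK2 and 1.21 (0.921 to 1.61) for ATF4, whose interval spans 1. Over all genes the 3′UTR ratio was also above 1, at 1.39. Coding ratios were below 1 for G3BP1 at 0.663, G3BP2 at 0.730, TIAL1 at 0.634, ATF4 at 0.516 and EIF2S1 at 0.442, beside 0.597 over all genes. EIF2AK2 stood at 0.984 (0.829 to 1.17), and EIF2AK1 was well above at 4.73 (3.02 to 7.83), on 383 and 20 reads. The 5′UTR ratios were lowest for ATF4 at 0.0717 (0.0449 to 0.111) and G3BP1 at 0.231 (0.160 to 0.334), beside 0.484 over all genes, while EIF2S1 at 0.690 (0.543 to 0.884) and G3BP2 at 0.703 (0.499 to 1.01) were above it. TIAL1 had 44 5′UTR reads in FH-DHX36-E335A and none listed in FH-DHX36. The flat ratio of G3BP1 as a whole was therefore made of a 3′UTR ratio of 2.31 and a ratio of 0.269 (0.259 to 0.280) outside the categories. When only reads in the 4 categories were counted, a choice made after seeing those reads, the G3BP1 ratio was 2.33.

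**Figure D5:**
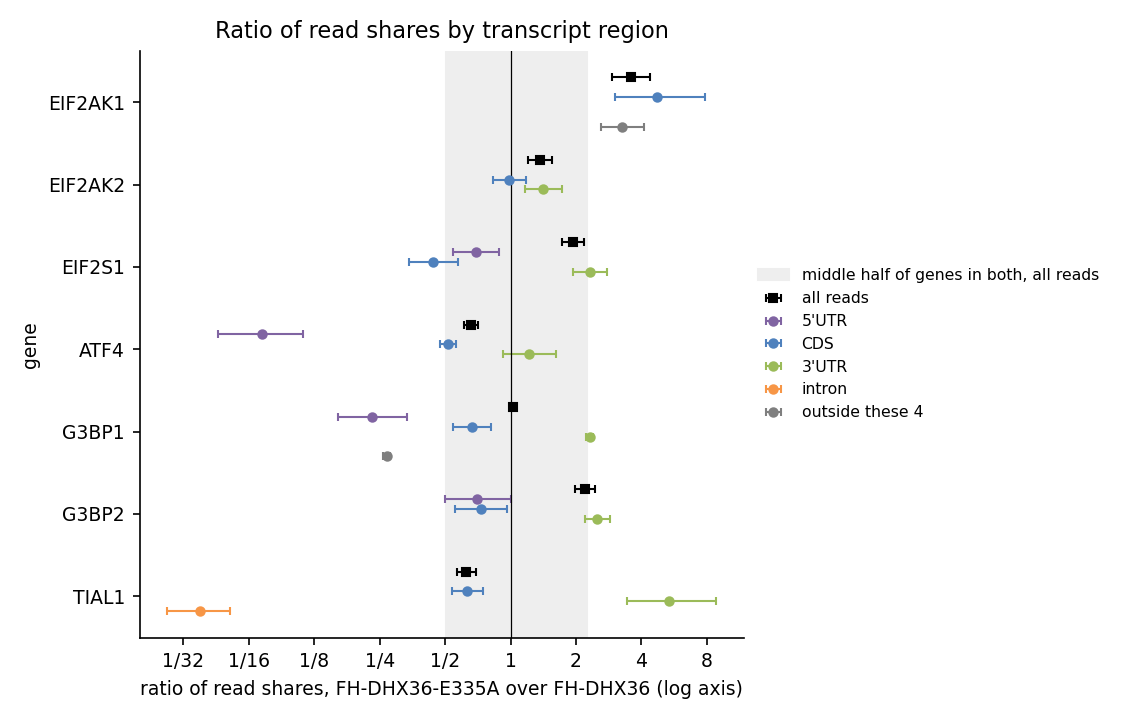
Ratio of read shares, FH-DHX36-E335A over FH-DHX36 (log axis), for the 7 genes with clusters in both lines, for all reads (black squares) and by region (coloured points), with 95% exact conditional intervals for counting error, and grey shading for the middle 50% of all genes (0.503 to 2.24). For G3BP1, G3BP2, EIF2S1, TIAL1, ATF4 and EIF2AK2 the 3′UTR points lie to the right of the coding points, with overlapping intervals for EIF2AK2.

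The wider pathway was described from 6 lists with 69 genes, of which 63 had a cluster in FH-DHX36-E335A and 49 in FH-DHX36, where 34.5% and 22.4% of all entries did. Of the subunits of eIF2 and of its exchange factor eIF2B, 7 of 7 and 4 of 7 had clusters, led by EIF2S3 with 18524 reads and EIF2S2 with an NXPM of 34.2, the remaining eIF2 subunits. The median NXPM of this list in FH-DHX36-E335A was 1.73, the only one of the 6 lists below that of all genes. Of 10 regulators of the kinases 8 and 5 did, and ADAR, the editing enzyme that limits PKR activation by double-stranded RNA, had both the most reads, 6765 and 490, and the highest NXPM, 95.1 and 27.9. Of the 5 subunits of the phosphatases that reverse eIF2 phosphorylation 5 and 4 did, with PPP1CC, a catalytic subunit, at 23010 reads and PPP1R15B, the constitutive targeting subunit, at an NXPM of 43.2. All 16 partners and targets of ATF4 had a cluster in FH-DHX36-E335A and 14 in FH-DHX36, with DDIT4, an inhibitor of mTORC1 signalling, at 20527 reads and CEBPG, a dimerisation partner, at an NXPM of 65.0. Of 5 other genes of the unfolded protein response 5 and 2 did, with XBP1 at 1572 reads and ERN1, which encodes the sensor IRE1, at an NXPM of 12.0 on 1 cluster of 54 reads. Of 26 stress granule components 22 and 20 did, with NUFIP2, a G3BP partner, at 56 clusters and an NXPM of 146.8. TARBP2, GCN1, ATXN2, FMR1, LSM14A and DYRK3 had no cluster listed in FH-DHX36-E335A. GCN1 is an entry under this symbol and not under its older one, GCN1L1, and whether its clusters were lost through the naming of entries was not tested. In FH-DHX36-E335A the median NXPM over genes with a cluster was 7.35 for the 6 lists. It was 12.2 for the 10 genes and 5.66 for all genes. In FH-DHX36 these medians were 8.72, 15.8 and 7.84. The genes named with values above are the highest of their lists. Median reads in FH-DHX36-E335A were 326 over all genes with a cluster. Below this were eIF2 and eIF2B subunits at 160, kinase regulators at 261.5 and other unfolded protein response genes at 135. Above it were phosphatase subunits at 2390, ATF4 partners and targets at 1850 and stress granule components at 2008. In the 49 pathway genes with clusters in both lines the median ratio was 1.31, with 20 at least 2-fold higher in FH-DHX36-E335A and 9 at least 2-fold lower, beside a median of 1.08 and shares of 28.6% and 24.8% over all genes with clusters in both.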

How the data were processed

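Crosslinked reads, clusters and NXPM per gene were taken from 1 table over both cell lines. According to the study's methods and the labels, the authors mapped PAR-CLIP reads to hg19 (base calling with bcl2fastq 2.17.1), used the default settings of PARpipe, which runs PARalyzer, to call clusters, and assigned these to categories of GENCODE 19. The study describes sites found in both replicates of a line. How the reads of the 2 samples were combined into the table's values, and mapper and caller versions, are not given in the sources used here. Crosslinked reads are deposited as raw counts, the clusters as numbers per gene, and NXPM is a score the authors made by scaling reads to 1000000 and dividing by mRNA abundance. That abundance was recovered from reads and NXPM, with a constant of 0.001, and agreed between lines within 0.1% for 5646 of 5646 genes with a cluster in both and an abundance over 0.01.

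From these, shares with Wilson intervals, exact Poisson intervals of reads and exact conditional intervals of ratios were computed (Python 3.11.15, scipy 1.17.1). Reads outside the listed categories are the total less the 4 regions. A ratio was called past 2-fold. No test was made, since each line has 1 value. Of the identifiers, 22592 of 26490 matched GENCODE 44 on GRCh37, and motifs were searched in 19553 canonical transcripts. The scripts were tested on simulated data. The 10 genes and the lists were chosen with earlier results of these data known. All 10 genes are named, with the gene of most reads and of highest NXPM in each list and the 3 nearest to EIF2AK2 in NXPM, except 1 gene of the lists that is not reported here.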

Additional observations from a re-analysis of the deposited data

How the results depend on the processing

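No paired analysis was possible because the table holds 1 value per line and not the 2 samples behind it, and for the same reason no sample could be left out. The counts of genes with a cluster, 10 and 7, were the same with at least 2 clusters or an exonic cluster. Leaving DHX36 and entries whose symbol starts with MT- out of the total moved no value past its interval. Entries listed under Ensembl identifiers were not left out, so mitochondrially encoded genes listed that way stayed in the total. Counting exonic reads only, the 10 genes held 0.596% of reads in FH-DHX36-E335A and 0.339% in FH-DHX36, and the summed ratio went from 1.09 to 1.76. It was 1.00 when scaled by the median gene, 0.793 in clusters, 1.76 with reads in the 4 categories and 1.26 without G3BP1, which also took the shares to 0.155% and 0.122%. The 3′UTR share of exonic reads, 87.3% and 65.9%, was 63.9% and 51.0% in clusters, 54.5% and 37.6% as a mean over genes, 70.9% and 33.4% of all reads, and 55.2% and 26.8% without G3BP1. The median percentile of NXPM among genes with a cluster, 66.1 and 65.9, was 70.0 and 69.8 at an abundance of at least 1, and 84.8 and 78.8 for reads in place of NXPM. With the longest transcript the median reads per kb of 3′UTR went from 141.6 to 99.2 and the clusters from 3.03 to 2.15 in FH-DHX36-E335A, and the clusters from 0.650 to 0.558 in FH-DHX36. With runs of at least 3 guanines the 78 matches fell to 1, and on the longest transcripts there were 76. The similar totals hide changes within genes. On the longest transcripts the TIAL1 3′UTR held 6 in place of 0 and its 5′UTR 0 in place of 5. EIF2AK3 held 1 in the 5′UTR and 5 in the coding sequence, in place of 4 and 11. The ATF4 5′UTR held 6 in place of 1, and 1 with runs of at least 3 guanines. Match counts of single genes thus depend on the transcript chosen. Of 35 ratios of single genes under alternatives, 30 stayed on the same side of 1 and 29 kept their 2-fold call. The exceptions included EIF2AK1, at 1.20 in clusters, G3BP1, past 2-fold on exonic reads at 2.22 and below 1 in clusters at 0.532, TIAL1, above 1 on exonic reads at 1.12 and in clusters at 1.67, G3BP2, at 1.98 on exonic reads, and in clusters ATF4 at 0.354 and EIF2S1 at 0.881. Leaving DHX36 and MT- entries out and scaling by the median gene multiply every gene's ratio by a common factor near 1. These settings could thus change few calls, and the counts of 30 and 29 lean on them. In clusters only EIF2AK2, at 1.11, kept both its side of 1 and its call. The settings without G3BP1, with the 4 categories and with exonic NXPM per kb were added after seeing the data. FH-DHX36 is the shallower PAR-CLIP, and a gene with no cluster listed there may lie below its reach.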
